A study of Rattus norvegicus with 3 samples.

Results

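The genes described here are those by which a cell receives Sonic hedgehog (Shh): Ptch1, Smo, Gas1, Boc, Cdon, Gli1, Gli2 and Gli3. They were taken by symbol from the gene list of the deposited matrices, and all 8 were found among the 29772 genes listed. Expression was measured by droplet single-cell RNA sequencing in freshly prepared cells of the cerebral cortex of wildtype rat embryos, in 3 libraries that the submitters labelled E14, E16 and E18 (embryonic days 14, 16 and 18). Tissue was dissociated with papain, and no other treatment or allele is named in any group. The protocol text also speaks of cultured, oligonucleotide-tagged and sorted human cells, which does not match primary rat tissue, and which of those steps applied is not given. How many embryos went into a library is not given in the sources used here. Each label has 1 library, so the values compare libraries, and no test between ages was possible.

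Shh is a secreted protein that patterns the ventral neural tube and acts as a growth signal for neural progenitors. Its receptor Ptch1 holds the membrane protein Smo inactive, and binding of Shh to Ptch1, helped by the surface proteins Gas1, Boc and Cdon, releases Smo, which acts through the primary cilium on the Gli transcription factors. Gli1 is an activator and is itself a target of the pathway, as is Ptch1, while Gli3 in its cleaved form represses targets and is needed for the dorsal forebrain to form.

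The files held 62740631, 80974234 and 73727823 unique molecular identifiers (UMIs, counts of single captured RNA molecules) in label order. After filtering, 4286, 4977 and 5431 cells remained, with 405, 3039 and 1802 radial glia (RG, the dividing cells that line the ventricle), identified by markers that exclude the 8 genes. The labels ran against the stage genes. Hmga2, a gene of early radial glia, stood at 12.1 CPM (UMIs per 1000000 UMIs of the class) in radial glia of the library labelled E14, 225 in that labelled E16 and 21.4 in that labelled E18. Aldoc, a gene of late radial glia, stood at 727, 17.0 and 240 CPM in the same order, and the embryonic globin Hbe1 at 1.19, 234 and 55.1 CPM. By these genes the library labelled E16 was the earliest and that labelled E14 the latest, so every difference below is stated between labelled libraries and none is read as a course over age. Radial glia labelled E14 and E18 lay mostly in clusters 4, 11 and 16 (97.5% and 92.4%), whereas 99.4% of those labelled E16 lay in clusters 0, 1 and 6. The dorsal cortical factors Emx1 and Lhx2 were present in radial glia of all 3 libraries, at 79.3, 158 and 139 CPM for Emx1 and 561, 702 and 778 CPM for Lhx2.

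The library labelled E16 held 4 newborn neurons. Its neurons were therefore represented by 613 cells of cluster 12, led by Calb1, Calb2 and Lhx9 and with 12 neuron markers detected. The cluster stayed unnamed because its best-scoring class was Cajal-Retzius cells, of whose markers 2 were detected and 3 were needed. The choice of cluster 12 was made after the data were seen. In the libraries labelled E14 and E18, 899 and 1849 cells were newborn excitatory neurons. These lay in different clusters. In the library labelled E14, 887 newborn neurons were of cluster 5, whereas in that labelled E18, 1054 were of cluster 3 and 790 of cluster 7. Maturing neurons labelled E14 were mostly of clusters 2 and 9 (1063 and 732 cells) and those labelled E18 of cluster 14 (407 cells). A further 566 cells labelled E14, in cluster 13, led by Sstr2, Negr1 and Cxcl12, had 13 neuron markers detected but more leading genes of intermediate progenitors. They stayed unnamed and are not part of the E14 neurons compared below. UMIs were counted at the 3′ end of transcripts, so levels are compared between cells and libraries for 1 gene at a time, not between genes. Intervals are 95% and cover counting error only, not the spread between embryos or preparations.

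Among the 6 members with a promoter available, Ptch1, the receptor, is the one whose promoter holds a binding motif of the Gli factors. The promoter is shown because Ptch1 behaved unlike the other members in these libraries. It is the 250 bases before the annotated start site at chr17:1555321-1555570 (plus strand, GRCr8, RefSeq), and the capitals mark the match to the motif GACCACCCA, read on the opposite strand as TGGGTGGTC, whose first printed base lies 172 bases before the start site (-172).
Ptch1: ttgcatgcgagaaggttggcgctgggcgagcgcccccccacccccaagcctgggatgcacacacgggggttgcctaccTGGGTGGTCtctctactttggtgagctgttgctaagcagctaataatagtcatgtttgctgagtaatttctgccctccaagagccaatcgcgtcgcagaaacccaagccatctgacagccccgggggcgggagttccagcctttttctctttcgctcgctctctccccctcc
Promoters were matched by symbol for 6 of the 8 members, and those of Gli1 and Gas1 were not available and not searched. In windows from 250 bases before to 50 after the start, searched on both strands with no second motif, the 9 letters were found in that of Ptch1 and not in those of Gli2, Gli3, Smo, Boc and Cdon. The motif was present in 104 of 27457 rat promoters of the same length (0.379%). A match describes letters and not binding, which was not measured.

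Ptch1 stood at 19.4 CPM (interval 16 to 23.3, 114 UMIs) in radial glia labelled E14, 5.84 (5.16 to 6.57, 272 UMIs) in those labelled E16 and 4.15 (3.39 to 5.02, 105 UMIs) in those labelled E18. The library labelled E14 was the highest, and its interval did not overlap those of the other libraries. The ratio of E16 to E14 was 0.301 (0.241 to 0.378) and that of E18 to E14 0.214 (0.162 to 0.281), which are log2 ratios of -1.58 and -1.99 with 1 CPM added to each level. In intermediate progenitors (IP, the dividing daughters of radial glia that give rise to neurons) Ptch1 stood at 8.73, 4.93 and 2.07 CPM in label order, in the same order of libraries as in radial glia. There the ratio of E18 to E14 was 0.237 (0.140 to 0.394). Thinned to 2000 UMIs per cell, 3.00%, 1.23% and 0.672% of radial glia showed a Ptch1 UMI, and unthinned 18.3%, 7.24% and 5.16%. Of 167 erythroid and microglial cells none did when thinned (3 cells as the limit of a count of 0 allow up to 1.80%), and 10.8% did unthinned at more than the depth of radial glia (medians 30884 against 13006, 13535 and 12606 UMIs). By these shares only the library labelled E14 exceeded the limit, and its interval (1.56% to 5.18%) includes it. By CPM, the interval of erythroid cells labelled E16 (2.93 CPM, 1.51 to 5.12) lay below those of radial glia labelled E14 and E16 and overlapped that of radial glia labelled E18. It also overlapped the intervals of newborn neurons in both libraries, of clusters 12 and 13 and of intermediate progenitors labelled E16.

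Between the libraries labelled E14 and E18, Ptch1 in neurons ran the other way, in cells of different clusters and, for newborn neurons, at levels whose intervals overlapped that of erythroid cells. Newborn neurons held 3.18 CPM (2.06 to 4.69) in the library labelled E14 and 5.68 (4.58 to 6.95) in that labelled E18, and maturing neurons held 7.52 (6.54 to 8.60) and 12.7 (10.1 to 15.8). The level was thus higher in maturing than in newborn neurons in both libraries, by 2.36-fold (1.56 to 3.74) and 2.24-fold (1.64 to 3.05). No other member was higher in maturing than in newborn neurons in both libraries. Ptch1 lay under the 10 CPM mean used for calls there. Among all genes that met it, 3.12% and 5.55% were at least 2-fold higher in maturing neurons, labelled E14 and E18. Radial glia exceeded newborn neurons in Ptch1 by 6.10-fold (3.93 to 9.82) in the library labelled E14. Against all neurons of that library pooled, maturing neurons and cluster 13 included, the excess was 3.15-fold (2.50 to 3.94). In the library labelled E18 radial glia lay below newborn neurons (ratio 0.731, 0.548 to 0.977). That direction turned under alternatives, the log2 ratio with 1 CPM added being -0.38 as reported, 0.18 with no doublets removed and 0.74 at a clustering resolution of 0.5. In the library labelled E16 radial glia lay near cluster 12, which had 6.25 CPM (ratio 0.934, 0.655 to 1.37).

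High Ptch1 levels were also found outside radial glia and the excitatory neurons. Cells of the GABAergic lineage (inhibitory neurons, which reach the cortex from the ventral forebrain) held 30.0, 30.6 and 26.1 CPM in label order, on 10, 18 and 11 UMIs. Cajal-Retzius cells, which make reelin at the cortical surface, held 12.2 CPM in the library labelled E16 and 19.6 in that labelled E18, and choroid plexus cells held 21.1 and 14.7 CPM in those libraries. Among combinations of class and library with at least 50 cells, the highest value was 36.4 CPM (30.6 to 42.9, 142 UMIs) in cluster 17, described further on. The intervals of cluster 17 and of the 3 GABAergic groups overlapped, so their order is not resolved. At the other end, Ptch1 in intermediate progenitors labelled E18 (2.07 CPM, 1.34 to 3.05) also overlapped the level in erythroid cells.

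**Figure D1:**
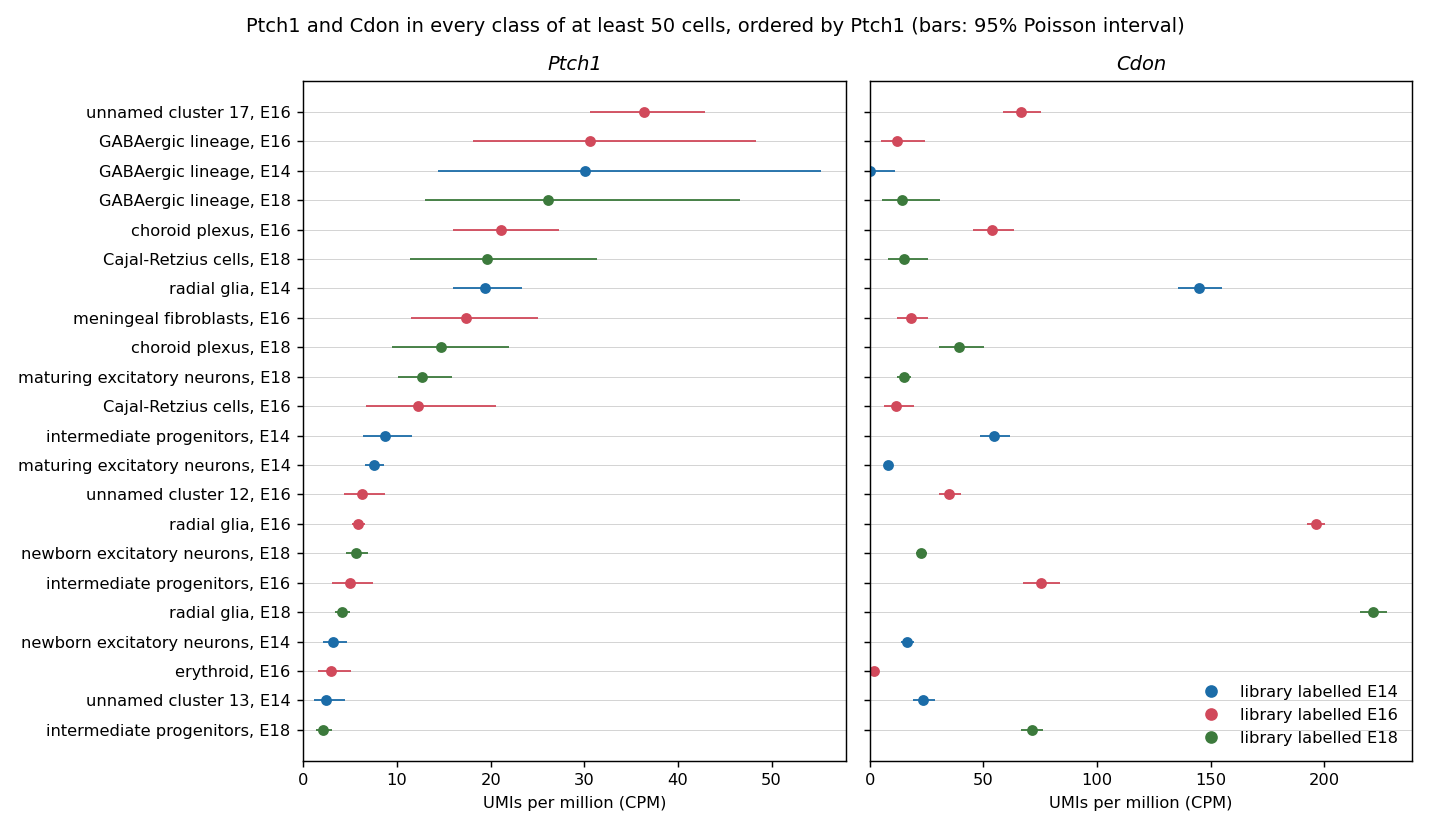
Levels in CPM (x axes) of Ptch1 (left) and Cdon (right) in the 22 combinations of cell class and library with at least 50 cells, ordered by Ptch1, with points for the level and bars for the 95% Poisson interval. Cluster 17 (36.4 CPM) and the GABAergic cells lead for Ptch1, whereas radial glia lead for Cdon (145, 196 and 222 CPM).

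Smo, the membrane protein that carries the signal inward, was at similar levels in radial glia of the 3 libraries. It stood at 35.6 (30.9 to 40.7), 41.5 (39.7 to 43.4) and 42.0 CPM (39.5 to 44.6) in label order. The library labelled E14 was the lowest, with overlapping intervals and a ratio of E16 to E14 of 1.17 (1.01 to 1.35), a direction that turned with the stricter cell filter described next (log2 ratio -0.08 in place of 0.22). Intermediate progenitors held 22.0, 16.4 and 23.6 CPM, newborn neurons 1.65 and 4.52 CPM (E14, E18), maturing neurons 0.638 and 1.45 CPM, and cluster 12 8.75 CPM. Smo was thus highest in radial glia, lower in intermediate progenitors and lowest in neurons in each library. The ratio of radial glia to neurons was 21.5 (12.3 to 41.1) in E14, 4.74 (3.57 to 6.44) in E16 and 9.31 (7.35 to 11.9) in E18. With only cells of at least 2000 genes and at most 5% mitochondrial UMIs, which left 136 radial glia and 53 newborn neurons labelled E14, the log2 ratio in E14 was 0.96 in place of 3.78, under 2-fold. It was 1.28 in place of 2.12 in E16 and 1.95 in place of 2.96 in E18. Choroid plexus cells held 45.4 CPM in both libraries with at least 50 of them, within the interval of cluster 17 (44.3, 37.9 to 51.4).

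Gas1, a lipid-anchored co-receptor that promotes Shh signalling, showed the steepest difference between radial glia and neurons of the 7 members with UMIs in neurons, in E14 and E18. In E16 its interval overlapped that of Gli3 (23.8-fold, 9.25 to 87.4). Radial glia held 200.1 (189 to 212), 191.1 (187 to 195) and 128.5 CPM (124 to 133), with E18 the lowest and the other two overlapping. Intermediate progenitors held 19.9, 17.7 and 16.1 CPM, in overlapping intervals. The fold from radial glia to intermediate progenitors was 10.0 (8.22 to 12.4), 10.8 (8.65 to 13.6) and 8.01 (6.92 to 9.30). Newborn neurons held 1.53 CPM on 12 UMIs (E14) and 2.14 CPM on 35 UMIs (E18), and cluster 12 held 6.07 CPM. Radial glia therefore exceeded neurons 131-fold (74.8 to 254), 60.2-fold (43.2 to 86.5) and 31.5-fold (22.5 to 45.5) in E14, E18 and E16. With the stricter cell filter given for Smo, the log2 ratios were 4.06 in place of 6.31 in E14 and 4.26 in place of 5.37 in E18. The intervals of the newborn neurons and of cluster 12 overlapped that of erythroid cells labelled E16 (2.69 CPM, 1.34 to 4.81). Meningeal fibroblasts labelled E16 held 126 CPM (109 to 144), the highest level outside radial glia.

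Boc, an immunoglobulin-family co-receptor, differed by under 2-fold between libraries in radial glia and intermediate progenitors and declined less between the progenitor classes. Radial glia held 51.0 (45.4 to 57.2), 52.4 (50.4 to 54.5) and 46.3 CPM (43.6 to 49.0), and intermediate progenitors 38.1, 36.7 and 30.4 CPM. The library labelled E18 had the lowest value in both classes. In radial glia its ratio was 0.882 (0.822 to 0.946) to E16 and 0.906 (0.798 to 1.03) to E14, so it is not resolved from E14 there. In intermediate progenitors its ratio was 0.796 (0.669 to 0.951) to E14 and 0.826 (0.686 to 0.9997) to E16. The fold between the classes was 1.34 (1.12 to 1.61), 1.43 (1.22 to 1.68) and 1.52 (1.35 to 1.72), under 2-fold in each library. Newborn neurons held 7.50 and 11.8 CPM (E14, E18), maturing neurons 3.37 and 3.54 CPM and cluster 12 14.1 CPM, while cluster 13 of the library labelled E14 held 19.7 CPM. Radial glia exceeded neurons 6.80-fold (5.13 to 9.15), 3.72-fold (2.97 to 4.71) and 3.93-fold (3.37 to 4.6) in label order. Thinned shares of radial glia with a UMI were 8%, 9.81% and 8.68% for Boc and 6.50%, 7.62% and 8.06% for Smo, and unthinned 46.2%, 49.5% and 42.7% for Boc and 36.8%, 41.8% and 40.8% for Smo. Smo was seen in 0.599% of the blood cells thinned and 3.59% unthinned.

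Cdon, the close relative of Boc, was lowest in radial glia of the library labelled E14. It stood at 145 (136 to 155), 196 (192 to 200) and 222 CPM (216 to 228) in label order, with no overlap between intervals. The ratio of E18 to E14 was 1.53 (1.42 to 1.64), under 2-fold. Intermediate progenitors held 54.8, 75.3 and 71.4 CPM, newborn neurons 16.3 and 22.6 CPM, maturing neurons 7.98 and 14.96 CPM and cluster 12 35.0 CPM. Radial glia exceeded neurons 8.91-fold (7.40 to 10.8), 5.61-fold (4.87 to 6.50) and 9.82-fold (8.83 to 10.9) in label order. In radial glia E14 was thus the lowest library for Cdon and the highest for Ptch1. The order of E16 and E18 turned for Cdon with the stricter cell filter (log2 ratio of E18 to E16 of -0.09).

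How often the co-receptors were seen in the same cell depended on depth. When each cell was thinned to 2000 UMIs, at least 1 of Gas1, Boc and Cdon was seen in 48.2% of radial glia labelled E14 (43.3 to 53.3), 53.7% labelled E16 (51.9 to 55.5) and 52.6% labelled E18 (50.3 to 55.0). At least 2 of them were seen in 12.2%, 12.7% and 12.2%. In intermediate progenitors the share with at least 1 was 19.4%, 22.8% and 19.7%, in newborn neurons 4.46% and 7.54%, in maturing neurons 2.42% and 4.34%, and in cluster 12 10.8%. The ordering of classes followed that of the CPM levels. Without thinning, Gas1 was seen in 75.3%, 80.7% and 71.8% of radial glia and Cdon in 73.1%, 82.4% and 85.0%, and both were seen in 242 of 405, 2129 of 3039 and 1144 of 1802 radial glia. The thinned shares in the 167 blood cells were 1.80% for Gas1, 0.599% for Cdon and 0% for Boc, where 3 cells as the limit of a count of 0 allow a share of up to 1.80%. Unthinned they were 8.38%, 6.59% and 5.39%. Thinning left out 5, 21 and 16 radial glia that were too shallow.

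Gli1, the activator and pathway target, was scarce in all 3 libraries. Radial glia held 18 UMIs in 405 cells labelled E14 (3.06 CPM, 1.82 to 4.84), 67 in 3039 labelled E16 (1.44, 1.11 to 1.83) and 14 in 1802 labelled E18 (0.553, 0.302 to 0.928). The library labelled E14 was the highest and that labelled E18 the lowest, in the order of the Ptch1 levels, with E14 and E16 touching at their limits. Intermediate progenitors held 8, 1 and 2 UMIs. No UMI of Gli1 was found in newborn neurons, maturing neurons or cluster 12. Taking 3 UMIs per class as the limit that a count of 0 allows, radial glia were at least 8.03-fold higher than newborn neurons in E14, at least 3.02-fold in E18 and at least 2.68-fold above cluster 12 in E16. The lower limits of the ratios by the counting interval were 5.88, 2.15 and 2.12 in the same order. A single radial glial cell labelled E16 held 9 of the UMIs, and no cell of the other libraries held more than 2. Thinned to 2000 UMIs, 0.75%, 0.298% and 0.112% of radial glia showed Gli1, and unthinned 4.44%, 1.78% and 0.610%. The blood cells showed 0% thinned and 0.599% unthinned, so the share labelled E18 is not separable from background, and the thinned shares lie under the limit that 0 cells allow.

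Gli2, which acts mainly as an activator, did not separate radial glia from intermediate progenitors. Radial glia held 19.1, 15.7 and 15.05 CPM in label order, and intermediate progenitors 23.7, 14.8 and 19.4 CPM. The ratio of radial glia to intermediate progenitors was 0.804 (0.617 to 1.05), 1.06 (0.823 to 1.38) and 0.777 (0.659 to 0.919), so in the library labelled E18 the intermediate progenitors were the higher. Newborn neurons held 3.18 and 4.88 CPM and maturing neurons 0.213 and 0.161 CPM, and cluster 12 held 2.86 CPM. Cluster 13 of the library labelled E14, outside the newborn neurons, held 15.2 CPM (11.6 to 19.4), overlapping radial glia. With its cells pooled with the newborn and maturing neurons, radial glia labelled E14 exceeded neurons in Gli2 by 8.15-fold (6.14 to 10.8). Of the 3335 cells pooled, 1869 were maturing neurons with 0.213 CPM, so that ratio does not describe cluster 13 alone. Between newborn and maturing neurons Gli2 was lower still, the ratio being 0.0669 (0.0225 to 0.167) in E14 on 6 UMIs in maturing neurons. The ratio in E18 was 0.0329 (0.000824 to 0.189) on 1 UMI.

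Gli3, by contrast with Gli2, was higher in radial glia than in intermediate progenitors in each library. Radial glia held 22.1 (18.5 to 26.3), 17.0 (15.8 to 18.2) and 14.8 CPM (13.3 to 16.3), and intermediate progenitors 5.12, 8.07 and 5.63 CPM. The fold was 4.32 (2.84 to 6.80), 2.10 (1.51 to 3.03) and 2.63 (2.02 to 3.45), and these intervals exclude 1 whereas those of Gli2 in E14 and E16 do not. Newborn neurons held 0.890 and 1.04 CPM and cluster 12 0.714 CPM, with 7, 17 and 4 UMIs. Thinned shares of radial glia with a UMI were 3.00%, 3.08% and 3.08% for Gli3 and 4.75%, 2.45% and 2.91% for Gli2. Unthinned they were 24.7%, 20.4% and 17.8% for Gli3 and 22.7%, 20.1% and 18.0% for Gli2, against 1.2% and 0.599% of the blood cells.

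**Figure D2:**
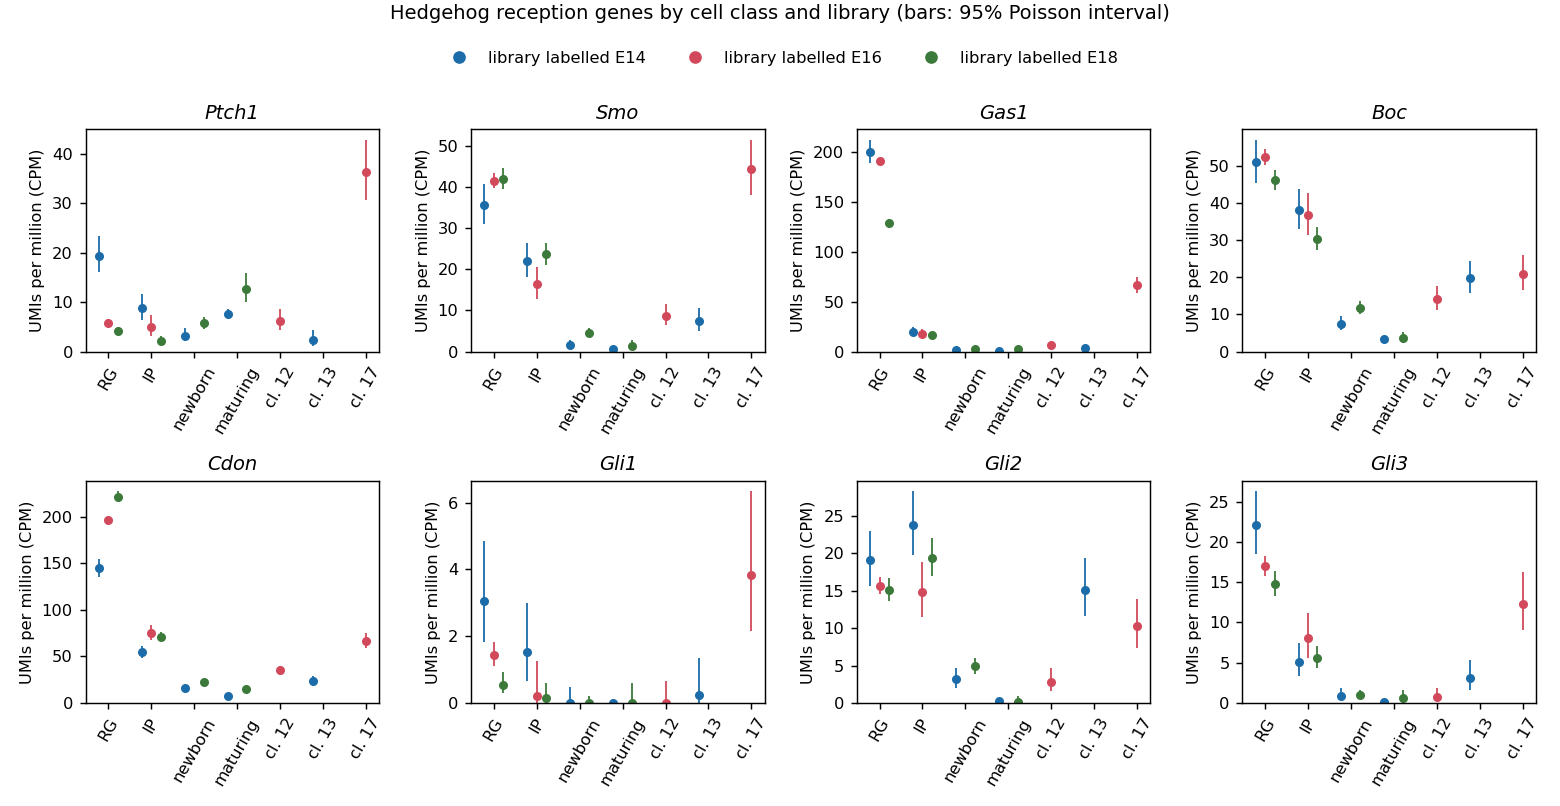
Level of each member in CPM (y axes, each panel with its own scale) in radial glia (RG), intermediate progenitors (IP), newborn and maturing excitatory neurons and the unnamed clusters (cl.) 12, 13 and 17, with colours for the libraries and bars for 95% Poisson intervals. Gas1, Cdon, Smo, Boc and Gli3 step down from RG to IP to neurons, Gli2 does not fall from RG to IP beyond the intervals and is higher in IP in E18, and Ptch1 is highest in cluster 17 (36.4 CPM).

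A gene counted as past 2-fold when its log2 ratio, with 1 CPM added to each level, was at least 1 in size, among genes whose mean over both groups was at least 10 CPM. Against newborn neurons labelled E14, 7 of the 8 members met the minimum (Gli1 did not) and all 7 were past 2-fold higher in radial glia, where 17.6% of all 8477 genes tested were. In the library labelled E18, 4 met it (Smo, Gas1, Boc and Cdon) and 4 were higher, against 15.7% of all genes. In that labelled E16, against cluster 12, the same 4 genes met it and were higher, against 15.4%. A low member can meet the minimum only through radial glia, so these counts describe the list and carry no support of their own. With the stricter cell filter the E14 count was 5, and log2 ratios there fell to 1.23 for Boc, 2.58 for Cdon, 2.74 for Gli3 and -0.26 for Gli2. The E14 count leaves out cluster 13, which held Cdon at 23.6, Smo at 7.46, Gas1 and Gli3 at 3.13 each and Ptch1 at 2.41 CPM, besides the Gli2 and Boc values above, and 1 UMI of Gli1.

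**Figure D3:**
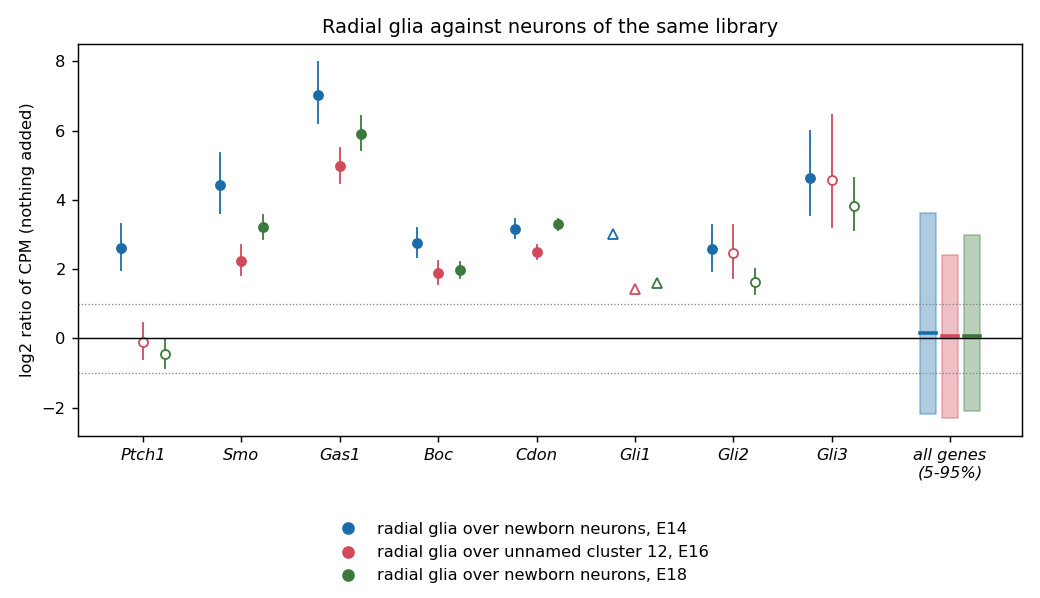
log2 ratio of CPM, with nothing added, in radial glia over newborn neurons (E14, E18) or cluster 12 (E16) for each member, with bars for 95% counting intervals, filled points for genes of at least 10 CPM mean, open ones for the rest and triangles for lower bounds where neurons had no UMI. Shaded bars span the 5th to 95th percentile of all genes tested, and Ptch1 is the member near 0 in E16 and E18.

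Against intermediate progenitors, 4 of the 7 members that met the minimum were past 2-fold higher in radial glia labelled E14 (Gas1, Gli3, Cdon and Ptch1), beside 7.47% of all genes. In E16 there were 3 of 6 (Gas1, Cdon and Smo, with Gli3 just inside the limit at a log2 ratio of 0.99), beside 6.53%, and in E18 3 of 6 (Gas1, Cdon and Gli3), beside 5.94%. Gas1 and Cdon were past the fold in each library. Gli3 and Ptch1 met the minimum through radial glia, so these counts are a description and carry no support. Intermediate progenitors in turn exceeded newborn neurons past 2-fold in 5 of 5 members labelled E14 (background 10.7%) and 4 of 4 labelled E18 (9.34%), and exceeded cluster 12 in 3 of 4 labelled E16 (9.68%). A low member met the minimum there mainly through intermediate progenitors, so these counts too carry no support. Among the tested members the exception was Smo in E16, at 1.87-fold (1.28 to 2.74). Ptch1, under the minimum, was lower in intermediate progenitors than in newborn neurons labelled E18 (2.07 against 5.68 CPM, ratio 0.364, 0.224 to 0.572).

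Between libraries, Ptch1 was the sole member past 2-fold in radial glia among those that met the minimum, which it met through its level in E14, so the call is a description. It was 1 of 7 members tested for E16 against E14, where 8.53% of all genes were past 2-fold in either direction and 6.56% were lower, and 1 of 7 for E18 against E14, where 3.55% were past it and 2.79% were lower. For E18 against E16 none of 6 tested members was past 2-fold, beside 2.14% of all genes. With 7 members tested, 1 call is the smallest count above 0, so the count itself is not read against these shares. The median log2 ratio of all genes was -0.12 for E16 against E14, so the ratios of that pair carry a shift of that size. Gli1, below the minimum, had ratios of 0.469 (0.276 to 0.840) and 0.181 (0.0831 to 0.384) to E14 and 0.385 (0.2 to 0.691) for E18 against E16. Its log2 ratio of E18 to E14 with 1 CPM added was -1.39, past 2-fold in size. For Ptch1, E18 against E16 had a log2 ratio of -0.41, and 0.19 under the setting with the stricter cell filter. Under that setting 267 cells labelled E16 were called radial glia in place of 3039, and 1242 labelled E18 in place of 1802, so the cells compared changed as well as the filter. These comparisons share libraries and are not independent of each other.

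**Figure D4:**
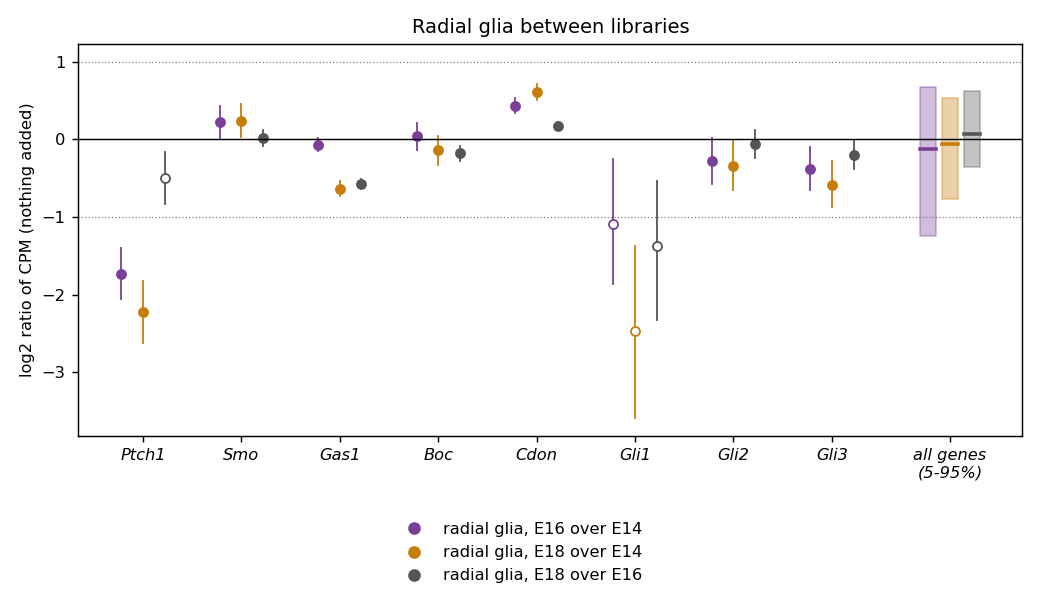
log2 ratio of CPM, with nothing added, between radial glia of 2 libraries for each member, with bars for 95% counting intervals, open points for genes under 10 CPM mean and shaded bars for the 5th to 95th percentile of all genes tested. Ptch1 lies below the dotted 2-fold line for E16 and E18 over E14 (ratios 0.301 and 0.214), while Smo, Gas1, Boc, Cdon, Gli2 and Gli3 lie within it. Gli1, under 10 CPM, lies beyond it in all 3 pairs (0.469, 0.181 and 0.385).

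The Ptch1 difference was present within clusters 4, 11 and 16, the radial glial clusters with at least 50 cells of both E14 and E18. In cluster 4 the level was 11.3 CPM (7.69 to 16.1) labelled E14 and 4.20 (3.00 to 5.72) labelled E18. In cluster 11 it was 25.4 (18.6 to 33.8) and 2.65 (1.68 to 3.98), and in cluster 16 28.6 (20.1 to 39.4) and 6.28 (4.35 to 8.77). Intervals of the 2 libraries did not overlap in any of these clusters. Clusters 11 and 16 held more of the proliferation marker Mki67 (712 and 690 CPM in E14) than cluster 4 (75.2 CPM), and in E14 they also held more Ptch1. In E18 Mki67 was 626, 606 and 66.8 CPM in clusters 11, 16 and 4. There cluster 11 held less Ptch1 than cluster 4 and cluster 16 more, in intervals overlapping that of cluster 4. Clusters 0, 1 and 6 of the library labelled E16 held 4.75, 5.69 and 7.18 CPM of Ptch1, with Mki67 at 432, 81.0 and 601 CPM. A link of Ptch1 to Mki67 was not tested. Cdon in clusters 4, 11 and 16 was lower in E14 (149, 140 and 145 CPM) than in E18 (226, 242 and 206 CPM).

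**Figure D5:**
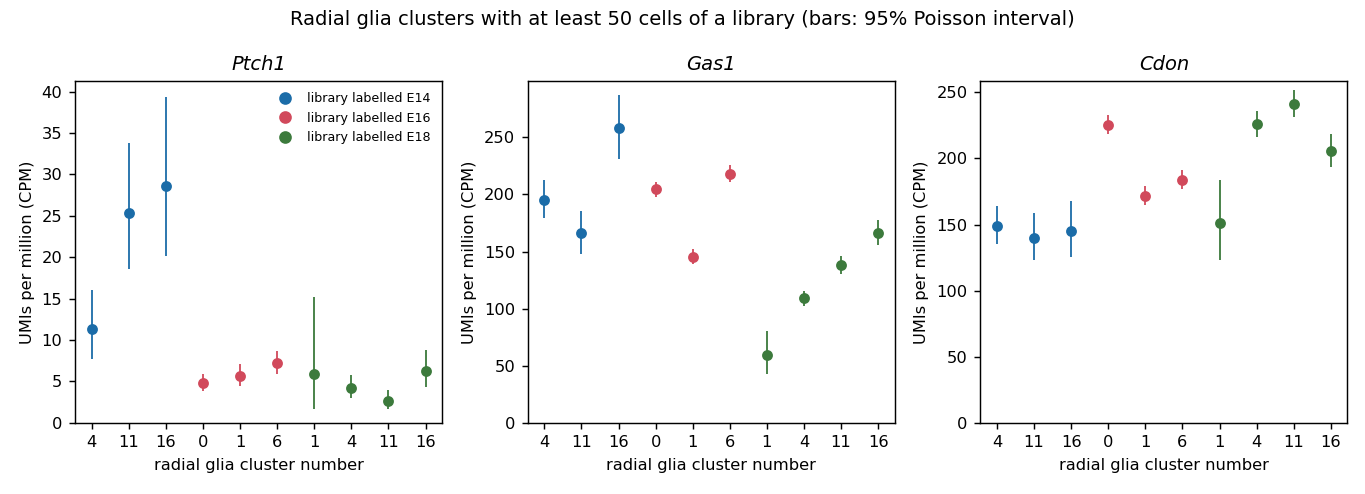
Levels in CPM (y axes) of Ptch1, Gas1 and Cdon in radial glia clusters (x axis, cluster numbers) holding at least 50 cells of a library, with colours for libraries and bars for 95% Poisson intervals. In clusters 4, 11 and 16 Ptch1 is higher in E14 than in E18, and Cdon is lower.

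Markers of other classes differed between the radial glia of the 3 libraries, in more than 1 order. All 6 markers of oligodendrocyte precursors were highest in E14, their summed level being 21.1, 1.24 and 3.52 CPM in label order, with Olig1 at 9.53, 0.365 and 1.07 CPM and Olig2 at 8.51, 0.558 and 2.25 CPM. Of 10 GABAergic markers, 6 were highest in E14, 3 in E16 and none in E18, Sp9 was at 0 in all 3, and the summed level was 147, 25.4 and 44.6 CPM. Markers of maturing neurons summed to 809, 488 and 474 CPM, with 10 of 12 highest in E14, and those of newborn neurons to 222, 106 and 113 CPM. The sums for maturing neurons ran in the order of Ptch1, and those for the other 3 of these lists were highest in E14 and lowest in E16. Markers of the cortical hem, summing to 4.42, 42.3 and 22.8 CPM, and of the choroid plexus, at 5.27, 17.2 and 42.5 CPM, were lowest in E14. The median mitochondrial share was 5.34%, 3.59% and 4.43%. With radial glia holding an Olig1 or Olig2 UMI left out, an alternative added after the data were seen, the log2 ratios of Ptch1 were -1.62 for E16 and -2.18 for E18 against E14. Without thinning, an Olig1 or Olig2 UMI was seen in 6.76%, 4.55% and 16.1% of radial glia with a Ptch1 UMI and in 4.53%, 0.887% and 2.28% of those without one, at greater depth in the former, so cells without such a UMI are not shown to lack the genes. The part of these markers and of the mitochondrial share in the difference was not tested.

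Ptch1 was seen in a larger share of radial glia with a Gli1 UMI than of those without one, but the former were also sequenced more deeply. Of 18 cells with a Gli1 UMI labelled E14, 8 (44.4%) also had Ptch1, against 17.1% of the other 387. The values were 14 of 54 (25.9%) against 6.90% in E16 and 3 of 11 (27.3%) against 5.03% in E18. Median depths were 15085, 16344 and 18789 UMIs in cells with Gli1 and 12797, 13499 and 12591 in those without. After thinning, 0 of 3, 1 of 9 and 0 of 2 cells with Gli1 had Ptch1, too few cells for a comparison at equal depth. Thinned, Cdon was seen in 25.8%, 30.0% and 37.3% of cells with Gas1 and in 20.3%, 28.1% and 31.8% of those without.

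Cluster 17 held 317 cells of the library labelled E16, 40 of that labelled E18 and 1 of that labelled E14. Its leading genes were Fgf17, Fgf8, Zic4 and Otx2, 5 radial glial markers were detected in it, and it remained unnamed. Ptch1 there was 6.23-fold (5.05 to 7.66) above radial glia of the same library, and Gli1 stood at 3.84 CPM (2.15 to 6.34), 2.67-fold (1.42 to 4.73) above. Gas1, Boc and Cdon were lower, at 66.3, 21.0 and 66.6 CPM (ratios 0.347, 0.401 and 0.339), and Smo was at a similar level (ratio 1.07, 0.908 to 1.25). Of 7 members tested 1 was past 2-fold higher (background 4.28%) and 3 were lower (2.02%). The higher one, Ptch1, met the minimum through cluster 17, as did Lrp2, Gpc3 and Zic1 named below. Their calls are a description and carry no support. Genes of the ventral forebrain were present, with Dlx2 at 49.2, Gsx2 at 19.2, Olig2 at 14.1 and Nkx2-1 at 10.2 CPM against at most 1.33 CPM in radial glia of the same library. Of 6 dorsal factors tested, 3 were past 2-fold lower than in radial glia of that library, Emx1 (38.4 against 158 CPM), Emx2 (73.0 against 187) and Lhx2 (131 against 702), while 2 were past it higher, among them Zic1 (49.4 against 5.30). Of 4 tested genes for ligand release and carriage, 2 were past 2-fold higher, Lrp2, a receptor that takes up Shh (25.1 against 3.35 CPM), and the glypican Gpc3 (28.9 against 6.09). Gpc4 was past it lower (22.8 against 70.8 CPM), and Gpc6 was not past it (27.9 against 25.8).

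Shh itself was nearly absent. Over all barcodes of the files there was 1 UMI of Shh in E14 and none in E16 or E18, and the limit that a count of 0 allows is 3 UMIs in a library. Ihh had 1, 2 and 7 UMIs and Dhh 25, 83 and 65, with Dhh at 0.340, 1.24 and 1.03 CPM in radial glia. The surface inhibitor Hhip, also a target of the pathway, had 4, 2 and 1 UMIs. None of these 4 genes reached 10 CPM in a comparison of radial glia.

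Of the lists for regulators, cilium, ligands, carriers, surface inhibitors and ventral targets, no tested gene was past 2-fold between radial glia of the libraries. Among all genes 8.53% were for E16 over E14, 3.55% for E18 over E14 and 2.14% for E18 over E16. In lists this short a count of 0 lies near these shares and is not read as a result. None of the 13 cytoplasmic regulators (among them Sufu and Kif7, which hold the Gli proteins back) was past 2-fold in any of the 3 pairs, with 12, 12 and 11 of them tested, and none of the 11 genes of the cilium machinery was, with 8 tested in each pair. The median log2 ratio of the cilium genes was -0.36 for E16 against E14, beside -0.12 for all genes. None of 9 genes for ligand release and carriage was, with 2 tested, and no ligand, surface inhibitor or ventral forebrain target met the minimum. Of the dorsal factors, 2 of 5 tested were past 2-fold higher in E16 than in E14, beside 8.53% of all genes in either direction. Emx2 was among them (187 against 92.6 CPM), and no dorsal factor was past it in the other pairs. Against newborn neurons, where 17.6% (E14) and 15.7% (E18) of all genes were past 2-fold higher in radial glia, both tested genes of the 9 for release and carriage were in both libraries, the heparan sulphate proteoglycans Gpc4 and Gpc6, at 86.1 against 20.1 and 20.6 against 0.636 CPM in E14. In the cilium list, with 6 of 11 tested, Ift122, of the intraflagellar transport complex, was past 2-fold higher in radial glia labelled E14 and E18 (17.7 against 5.47 and 16.7 against 5.61 CPM), and Tulp3 in E14 (15.1 against 5.09 CPM). Of these, Gpc6, Ift122 and Tulp3 met the minimum through radial glia, so their calls are a description and carry no support. No cytoplasmic regulator was, of 10 and 11 tested. Median log2 ratios over newborn neurons in E14 were -0.23 for the cytoplasmic regulators and 0.53 for the cilium list, beside 0.14 for all genes.

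The members mostly resembled different genes across the 22 combinations of class and library, with Eef1d shared by Gas1 and Gli3. Pearson's r of log2(CPM + 1) is given as a description, since combinations share libraries, depth and cell lineages. Cdon ran closest to Ttf2, Prim2 and Sox3 (0.94, 0.94 and 0.93), Boc to Cdk6, Fzd8 and Rnaseh2b (0.91, 0.89 and 0.86), and Gas1 to Eef1d, Tcf7l1 and Snx5 (0.96, 0.95 and 0.95). Smo ran closest to Suclg2, Hmg20b and Gulp1 (0.97, 0.96 and 0.96), Gli2 to Otud7b, LOC680933 and Glo1 (0.93, 0.92 and 0.91), and Gli3 to Phgdh, Eef1d and Rnaseh2c (0.96, 0.93 and 0.93). The values were lower for Gli1 (Tubb6, Prrx1 and Mrc2, 0.81, 0.80 and 0.80) and for Ptch1 (Spats2l, Wls and Maf, 0.79, 0.75 and 0.73). Among the members, r with Ptch1 ranged from -0.30 for Boc to 0.30 for Gli1, whereas Gli3 and Gas1 had an r of 0.90.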

How the data were processed

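Per the labels, the 10x Genomics 3′ chemistry was used, while Cell Ranger 6.0.1 and build mRatBN7.2 are named in the submitters' processing notes. The deposited matrices hold raw UMI counts per gene and barcode, not normalized, per the file headers. Barcodes with at least 1000 genes and at most 10% mitochondrial UMIs were kept, and the highest Scrublet scores were removed as doublets at 0.8% per 1000 cells (158, 216 and 259 cells in label order). Libraries shared 12 to 17 barcodes per pair. Cells were clustered without integration (scanpy 1.11.5, 2000 variable genes without the members and pathway lists, 30 principal components, 15 neighbours, Leiden with leidenalg 0.10.2 at resolution 1), and 22 of 25 clusters were named from 119 markers of 14 classes. A name needed at least 3 markers raised 1.2-fold in 20% of cells and no other class leading the top 10 genes. Sums of UMIs over each class of a library gave CPM, and exact Poisson, conditional binomial and Clopper-Pearson intervals were computed (scipy 1.17.1). The calling script was tested on simulated data. Promoters are from RefSeq (GRCr8). Named genes are all members, every ligand, up to 6 genes per pathway list past 2-fold in a described comparison, and the 3 genes most alike each member; other genes were named as background or after their values were seen. Some genes of the lists are not reported here. The members and lists were chosen with earlier results of these data known. Alternatives changed the cell filter, doublet rate, clustering, classes, pseudocount and minimum level.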

Additional observations from a re-analysis of the deposited data

Results flagged for a closer look

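Ptch1 moved in opposite directions between the libraries labelled E18 and E14 in different classes. Its log2 ratio of E18 over E14 was -1.99 in radial glia, 0.68 in newborn excitatory neurons and 0.69 in maturing excitatory neurons. Gas1 did likewise, at -0.63 in radial glia and 0.79 in maturing excitatory neurons, the last on 25 and 14 UMIs at 0.887 and 2.25 CPM, which is not above the level in erythroid cells labelled E16 (2.69 CPM). The neurons of the 2 libraries lay in different clusters, newborn ones in cluster 5 (E14) against clusters 3 and 7 (E18) and maturing ones mostly in clusters 2 and 9 against cluster 14. These differences between classes were not tested, since each label has 1 library.

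Cluster 17 belongs to none of the named progenitor or neuron classes. In the library labelled E16 it held Ptch1 at 36.4 CPM and Gli1 at 3.84 CPM, above radial glia of that library.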

How the results depend on the processing

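No paired analysis was possible because each label has 1 library. Of the 3 counts of members higher in radial glia than in neurons and the 3 counts past 2-fold between libraries, those for E16, E18 and E18 over E16 stayed within 1.5 times of the reported value under every alternative run. With a minimum of 20 CPM, which tests fewer genes, 3 members in place of 7 were higher in radial glia labelled E14, and the counts for E16 over E14 and E18 over E14 were 0 in place of 1, since Ptch1 was no longer tested. With at least 2000 genes and at most 5% mitochondrial UMIs, Gli2 in radial glia over neurons labelled E14 changed sign to -0.26 (log2) and Smo there was 0.96 in place of 3.78, on 53 neurons, and the cause was not tested. Of all log2 ratios of members under the alternatives, 246 between libraries kept their value within the counting interval and 42 moved. Of those of radial glia over neurons, 163 kept it and 124 moved, that of Smo included, and 1 reversed, that of Gli2. Ptch1 ranged from -2.49 to -1.17 for E16 over E14 from -2.30 to -1.42 for E18 over E14 and from -0.76 to 0.19 for E18 over E16, where the sign turned. In radial glia over neurons it ranged from -0.74 to 0.74 in E18 and from -0.23 to 0.79 in E16, so its sign there depends on the setting. Shares of radial glia with a UMI scale with the depth kept, from 18.8% at 1000 UMIs to 75.3% unthinned for Gas1 labelled E14. Gli1 and the neuron levels rest on few UMIs.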

Other observations

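Genes that share the Gli motif of the Ptch1 promoter were looked at as a group. Of the genes with the motif within 250 bases before to 50 after the start, 25 reached the minimum level in radial glia for E16 over E14, and 4 of them (16%) were past 2-fold lower, namely Cltb, Hspa4l, Ptch1 and Tmem256, beside 6.56% of all genes. For E18 over E14 there were 2 of 25 (8%), Cltb and Ptch1, beside 2.79%, and for E18 over E16 none of 24. None was past 2-fold higher in any pair. These comparisons share libraries, Ptch1 itself is in the group, and no enrichment was tested.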
